A study of Mus musculus with 6 samples.

Results

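B2m, the gene of beta-2-microglobulin, was 1 of 15 genes that could be named on the arrays of this series, out of 60915 probes in all. It was found by the transcript accession that the files give for a reference probe, which each array carries in 20 spots. Hippocampal RNA of C57BL/6 offspring was taken on postnatal day 20 and labelled with Cy3, and each sample was hybridized to a 1-colour Agilent array. The 3 vehicle offspring samples came from litters whose dams drank 1% saccharin, and the 3 nicotine offspring samples from litters whose dams drank 200 μg/ml nicotine in 1% saccharin, from before mating until weaning. Offspring of both sexes were used in the study, and the labels give neither the sex nor the litter of an array. The samples are hippocampal tissue with its cell types mixed, so fewer cells of a type and less RNA per cell cannot be told apart in any value below. The sources used here do not say whether the samples of a group came from separate litters, so the p-values measure the spread between these arrays.

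Beta-2-microglobulin is the light chain of MHC class I molecules. It binds without a covalent link to the heavy chains, which are encoded in the H2 region in the mouse, and without it most heavy chains do not reach the cell surface with a peptide. It is also the partner of related heavy chains such as the neonatal Fc receptor, the iron regulator HFE and CD1. Interferons and NF-κB raise its transcription in many cell types. In the brain it is made by microglia and endothelial cells and, at lower levels, by neurons, where MHC class I has a role in the pruning of synapses during development. The study asked by staining, western blot, qPCR and this array whether maternal nicotine alters microglia and inflammatory genes in the juvenile hippocampus. It also measured cytokines released by cultured primary microglia. B2m is the component of the MHC class I system whose probe can be named in these files.

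The gene lies on the forward strand of chromosome 2 (chr2:122147687-122153082, GRCm38.p6). The 250 bases before its start site, chr2:122147437-122147686, are shown from RefSeq because the elements through which interferons and NF-κB are known to act on this gene lie there. The capitals mark matches to the motifs searched.

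B2m promoter: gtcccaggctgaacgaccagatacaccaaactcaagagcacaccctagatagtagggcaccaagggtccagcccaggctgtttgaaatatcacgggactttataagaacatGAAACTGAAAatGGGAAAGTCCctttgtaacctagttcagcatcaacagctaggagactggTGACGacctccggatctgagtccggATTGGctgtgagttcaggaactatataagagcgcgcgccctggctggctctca

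The first match, GAAACTGAAA, starts 139 bases before the start site and fits GAAANNGAAA, the core of the interferon-stimulated response element. Of 32851 mouse promoter windows of this length, 2.98% hold this motif on either strand. The next match, GGGAAAGTCC, fits GGGANNNNCC, a form of the κB site bound by NF-κB, which 17.6% of the windows hold, and it also fits on the opposite strand, shifted by 1 base. The last matches are TGACG, 78 bases before the start site and found in 17.8% of windows, and ATTGG, the CCAAT box read on the other strand, 53 bases before it and found in 33.8%. The marked matches do not overlap each other, apart from the κB motif on both strands. These are letters in a window and not measured sites, and no array value bears on binding there.

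The B2m probe gave a strong signal on every array. All 20 spots were well above background on each of the 6 arrays and none was saturated, and the median raw spot was between 260.3 and 929 times its local background. Vehicle replicates 1, 2 and 3 had mean processed signals of 13118, 15968 and 5936. Nicotine replicates 1, 2 and 3 had 6190.0, 13570.4 and 15842. The low pair, vehicle replicate 3 and nicotine replicate 1, were the arrays of slide 2, and the 4 others lay on slide 1. The 75th percentile of all probes was also lowest on slide 2, at 148 and 150.0 against 291 to 345 on slide 1.

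**Figure D1:**
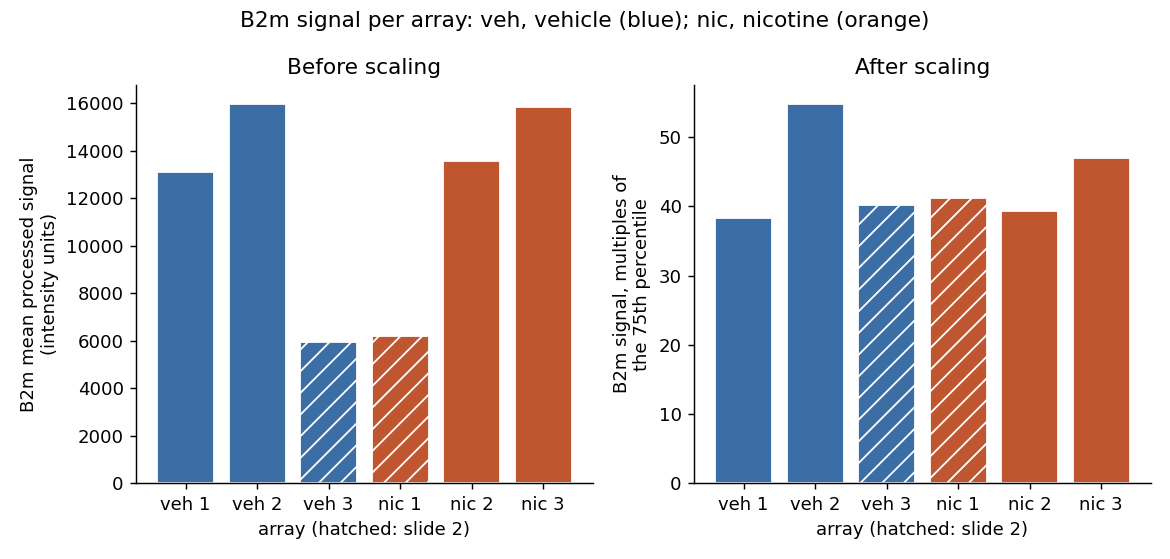
Mean processed signal of the B2m spots on each array before scaling (left, intensity units) and as a multiple of the array's 75th percentile (right), with vehicle arrays in blue, nicotine arrays in orange and slide 2 hatched. Before scaling the slide 2 arrays were at 5936 and 6190.0, and after scaling the 6 arrays lay between 38.3 and 54.8 times the percentile.

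Each array was therefore set relative to its 75th percentile on the log2 scale. On this scale the B2m levels of vehicle replicates 1, 2 and 3 were 5.26, 5.78 and 5.33. Those of nicotine replicates 1, 2 and 3 were 5.37, 5.30 and 5.56. Vehicle replicate 2 was the highest of the 6 arrays and vehicle replicate 1 the lowest, so the nicotine values lay inside the range of the vehicle values. Highest and lowest array were 1.43-fold apart, and without vehicle replicate 2 the range over the other 5 arrays was 1.23-fold.

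The level of B2m did not separate the groups. Vehicle offspring had a mean log2 level of 5.45 ± 0.28 (SD, n = 3), and the mean of nicotine offspring was 5.41 ± 0.13 (SD, n = 3). The log2 difference, nicotine minus vehicle, was -0.05 with a standard error of 0.23 (limma, p = 0.840, adjusted p = 1.00 over 30233 probes), and the exact permutation test over arrays gave a two-sided p of 0.9, where 0.1 is the smallest that 3 against 3 arrays allow. B2m was not called in this comparison, in which 3.04% of the probes tested had a p under 0.05 with a 1.5-fold difference and 0.0265% had an adjusted p under 0.05. The 95% interval of the difference ran from -0.60 to 0.50, or from 1.51-fold lower to 1.41-fold higher in nicotine offspring.

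The sign of this small difference depended on the processing. It was 0.031 after quantile normalization, 0.041 relative to the other 14 reference probes and 0.12 relative to Gapdh, each now higher in nicotine offspring. Gapdh is the control gene of the study's qPCR. Centring on the reference probes or on Gapdh shifts all probes of an array alike. The median difference over the probes tested moved with it, from -0.02 to 0.074 and 0.16. B2m stayed below that median in each case. The B2m difference was 0.022 on the authors' processed values. There B2m was at 13.27, 13.63 and 13.28 in vehicle replicates 1 to 3 and at 13.33, 13.36 and 13.56 in nicotine replicates 1 to 3. Without vehicle replicate 2 it was 0.11 (limma, adjusted p = 1.00). Over 23 alternatives the difference ran from -0.15 to 0.12, below 0 in 14 and above 0 in 9, and the lowest unadjusted p of these fits was 0.413. The lowest exact permutation p over the scalings and summaries was 0.4, when centred on Gapdh.

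**Figure D2:**
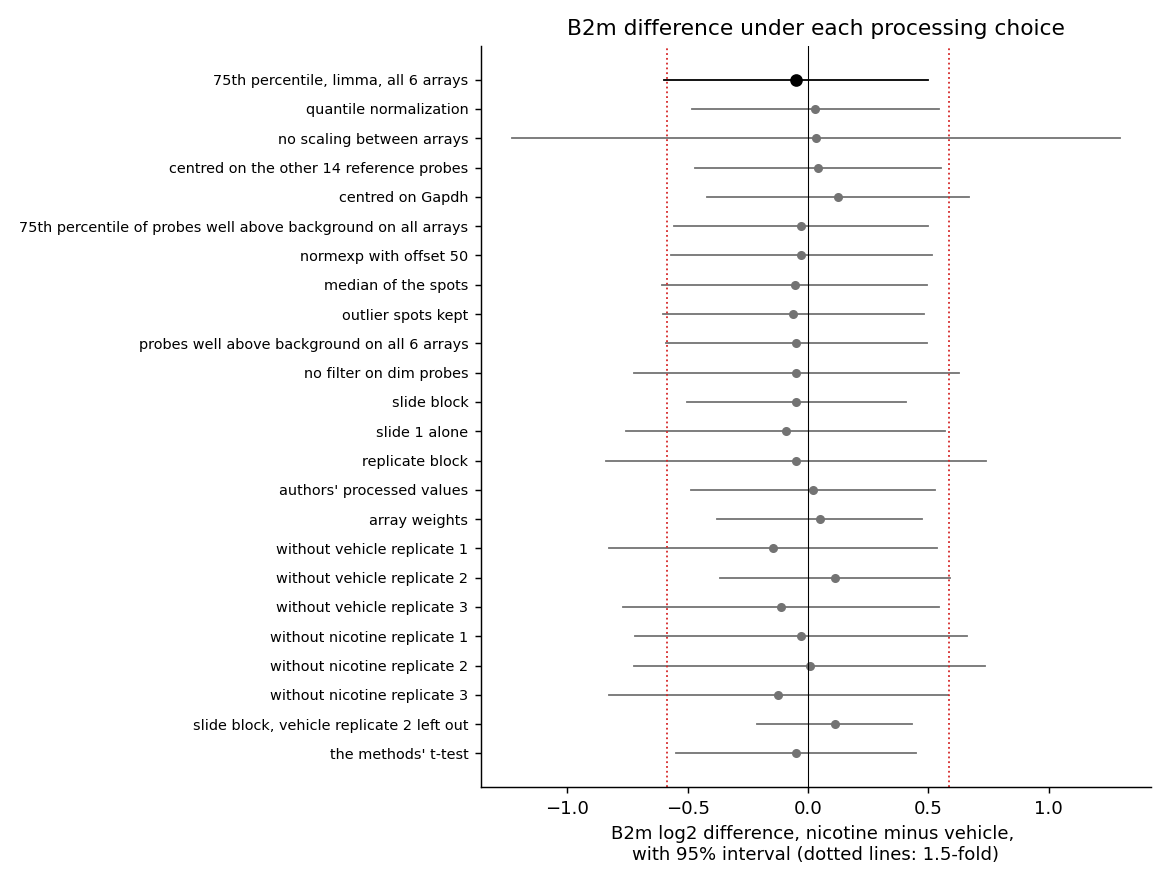
B2m log2 difference, nicotine minus vehicle, under each processing choice: the points are the estimates, the bars their 95% intervals and the dotted lines a 1.5-fold difference in either direction. Every interval crossed 0, and the estimates fell on both sides of it, from -0.15 to 0.12.

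Both slides held both groups. On slide 1 the mean of the nicotine arrays was 5.43 and that of the vehicle arrays 5.52 with 2 arrays each, a difference of -0.09. On slide 2 nicotine replicate 1 was 0.04 above vehicle replicate 3, with 1 array each and no replicate check. The directions of these within-slide differences were opposite, and the difference between them was not tested. When the model held slide as a block, the difference was -0.05 with a standard error of 0.19 (limma, adjusted p = 0.923), and its 95% interval narrowed to between 1.42-fold lower and 1.32-fold higher. B2m was not called there either, while 4.91% of the probes passed both thresholds and 0.0628% the adjusted p. Between the slides themselves B2m differed by -0.12, slide 2 minus slide 1, with a standard error of 0.20 (limma, adjusted p = 0.653), while 27.3% of all probes tested differed between slides at an adjusted p under 0.05. That share moved with single arrays and with the scaling: it was 28.6% without vehicle replicate 1, 3.05% without vehicle replicate 3, 5.22% without nicotine replicate 1, 13.7% without nicotine replicate 2, 13.0% without nicotine replicate 3 and 49.9% without vehicle replicate 2. It was 76.7% with no scaling between arrays and 17.8% when centred on Gapdh. The slide difference of B2m itself was -1.26 with no scaling (limma, adjusted p = 0.00105). For B2m it was -0.36 with normexp background correction, -0.31 centred on Gapdh and -0.0029 without vehicle replicate 2. Without vehicle replicate 3 or nicotine replicate 1, slide 2 is left with 1 array, which is assumed to vary like the others.

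The spots show how precise each array's value was. After the spots marked as outliers were left out, the coefficient of variation of the B2m spots lay between 1.36% and 4.48% (median 2.54%). On the log2 scale the SD of the spots within an array was at most 0.066 and the standard error of an array mean at most 0.015, while the SD of the 6 array means, which are separate samples, was 0.20. In vehicle replicate 1 the raw spot signals varied by 7.63% and the processed ones by 3.35%, while in vehicle replicate 3, on slide 2, the raw signals varied by 1.05% and the processed ones by 1.44%. Among the arrays with outlier spots, nicotine replicate 3 had 4, all below its array mean, at log2 signals from 5.34 to 5.44. With these kept its value was 5.52 instead of 5.56, and the difference between groups was -0.06.

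**Figure D3:**
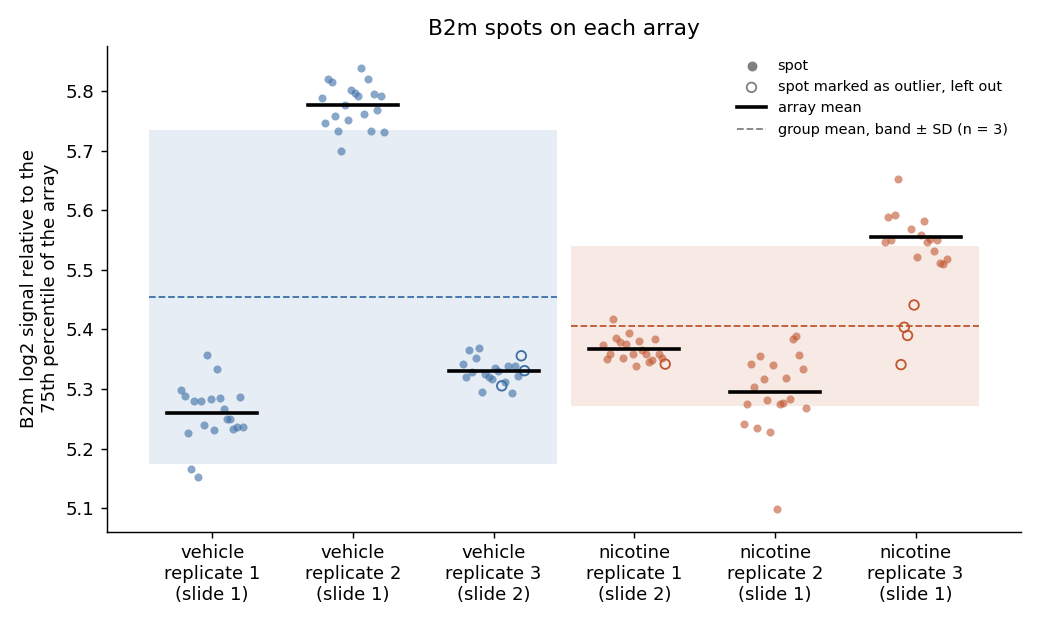
Log2 signal of the 20 B2m spots of each array relative to the array's 75th percentile, with filled points for spots used, open points for outlier spots left out, black lines for array means, and dashed lines with bands for the group mean ± SD (n = 3 arrays). The spots of vehicle replicate 2 lay between 5.70 and 5.84, above the spots of the 5 other arrays, and the 3 nicotine array means lay inside the vehicle band.

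Each spot has the same place on every array, so arrays can also be compared place by place. Spots marked as outliers were kept in these counts. At all 20 places vehicle replicate 2 was above each of the 3 nicotine arrays. At all 20 places vehicle replicate 1 was below nicotine replicates 1 and 3, and nicotine replicate 2 was above it at 13. On slide 2, nicotine replicate 1 was above vehicle replicate 3 at 18 of 20 places. Across slides, nicotine replicate 2 was above vehicle replicate 3 at 6 places and nicotine replicate 3 at 19. The 20 places share 1 RNA sample per array and are not replicates, so these counts compare single arrays and not the groups.

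Pairs of single arrays of the same group were as far apart as pairs between groups. The 6 pairs within a group were 1.05-fold to 1.43-fold apart with a median of 1.17-fold, and the 9 pairs of 1 vehicle and 1 nicotine array were 1.02-fold to 1.40-fold apart with a median of 1.17-fold. Vehicle replicate 2 was in the widest pair of both kinds. Without it the pairs within a group reached 1.20-fold and those between groups 1.23-fold.

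By the order of signal within an array, B2m was among the brighter probes. Between 2.73% of probes, in vehicle replicate 2, and 3.37%, in vehicle replicate 1, were brighter, which put B2m at ranks 1666 and 2055. Its ranks were 2045 in vehicle replicate 3 and 1981, 1953 and 1714 in nicotine replicates 1 to 3. The order of the arrays by rank followed the order by signal in part: vehicle replicate 2 and nicotine replicate 3 held the highest places by either, while nicotine replicate 2 had a higher rank than nicotine replicate 1 and a lower log2 signal. The signal of a probe depends on its sequence as well as on its transcript, so a rank describes signal and not the number of B2m transcripts against those of other genes.

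B2m varied less between arrays than most probes. Its SD over the 6 arrays, 0.20 on the log2 scale, compared with a median of 0.36 over 30197 probes tested with a value on every array, of which 13.0% had a lower SD. Among the 7550 brightest of these probes the median was 0.32, and 17.7% were lower than B2m. The size of its difference between groups, 0.05, compared with a median of 0.20 over the same probes. B2m values are means of 16 to 20 spots per array, while probes other than the reference probes have no repeat spots. These comparisons therefore set an averaged value against unaveraged ones.

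**Figure D4:**
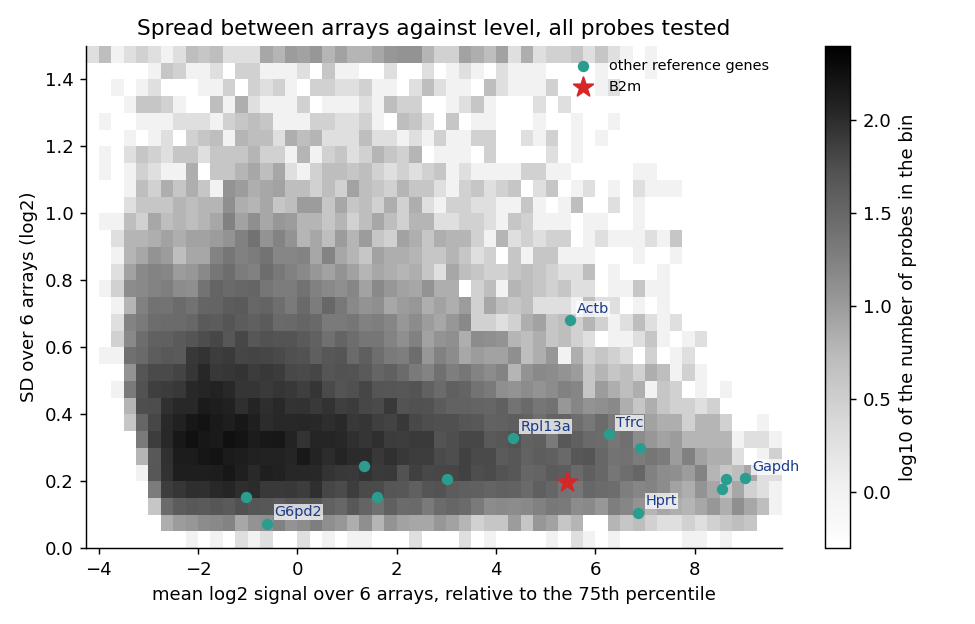
SD over the 6 arrays against mean log2 signal for the probes tested, as counts of probes in bins (grey, log10 scale), with the reference genes as green points and B2m as a red star. The top row holds 201 probes with an SD above 1.5, and B2m lay at an SD of 0.20, well under Actb at 0.68. Without vehicle replicate 2 these SDs were 0.12 for B2m and 0.27 for Actb.

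Vehicle replicate 2 stood above the other 3 arrays of slide 1 in B2m by 0.41, or 1.33-fold. In size alone, such a departure was usual on that array. Of the probes tested, 54.8% had a smaller one in either direction, and 29.2% departed by 1.5-fold or more. With the sign kept, 76.8% of the probes had a value below that of B2m, and the median was 0.02. Of the 14 other reference genes, 6 had their highest value of the 6 arrays in vehicle replicate 2 and 4 their lowest. Leaving this array out turned the difference between groups from -0.05 to 0.11 and lowered the SD over the remaining arrays to 0.12.

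Among the reference genes, those whose 6 array values ran most like those of B2m were Actb, Gk and Ppia. Actb, the gene of cytoskeletal beta-actin, had a Pearson r of 0.88 with B2m over the 6 arrays, Gk, the gene of glycerol kinase, 0.78, and Ppia, the gene of the prolyl isomerase cyclophilin A, 0.76. Tbp, which encodes the TATA-binding protein, ran most against it, with an r of -0.81. These likenesses leaned on 1 array. Without vehicle replicate 2 the values of r were 0.43 for Actb, 0.61 for Gk, 0.03 for Ppia and -0.33 for Tbp over the other 5 arrays. The order changed with it: Hprt, at 0.48, was then above Actb and Ppia, and G6pd2, at -0.77, ran most against B2m. All 15 profiles share the scaling of each array, and no test was made.

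**Figure D5:**
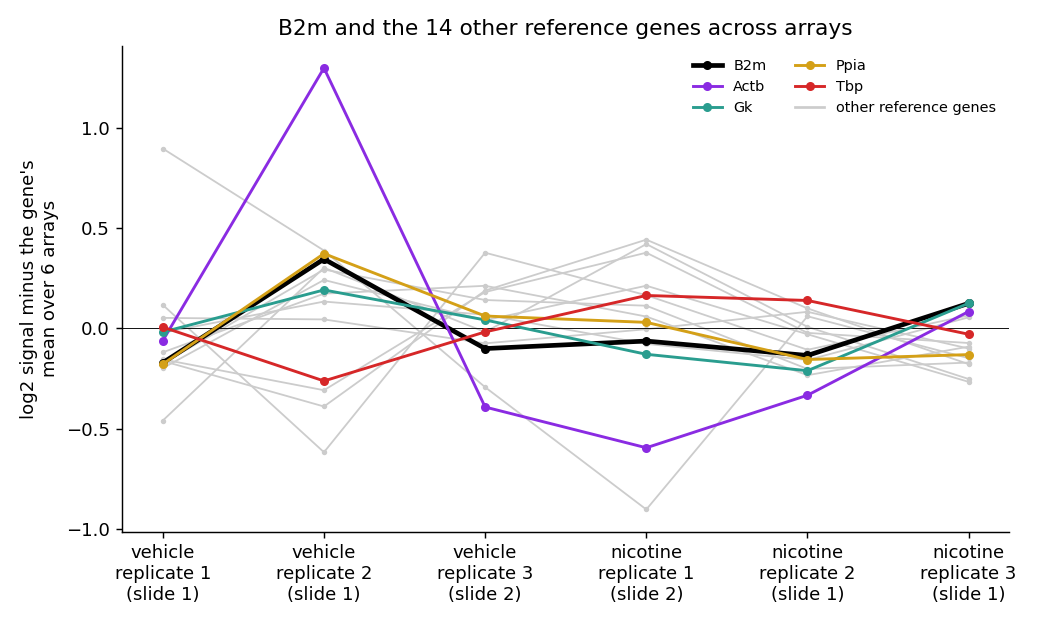
Log2 signal of B2m and the 14 other reference genes on each array, minus the mean of each gene over the 6 arrays, with lines joining the values of a gene. B2m, Actb, Gk and Ppia were highest in vehicle replicate 2 and Tbp was lowest there, and Actb departed most, by 1.40 from the other arrays of slide 1 against 0.41 for B2m.

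In departure on vehicle replicate 2, Actb was above the other arrays of slide 1 by 1.40 and Tfrc, the transferrin receptor, was below them by 0.64, and Rpl13a, Ppia and Gapdh were above them by 0.54, 0.53 and 0.48. The 0.41 of B2m was the 6th largest departure of the 15 genes. Beside B2m, 13 of the 14 other reference genes passed the filter on dim probes, and in these the nicotine minus vehicle difference on the log2 scale lay between -0.56 for Actb and 0.24 for Hsp90ab1, a chaperone. The Actb value rested on vehicle replicate 2, without which it was -0.05, and the range was then from -0.21 for Tfrc to 0.30 for Rpl13a, a ribosomal protein gene. Ldhal6b, the dim gene that did not pass, was at -0.66 and was not tested. In SD over the 6 arrays, 5 of the 14 were below B2m, led by G6pd2 at 0.07 and Hprt, a purine salvage enzyme, at 0.11.

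The heavy chains and other genes of the MHC class I pathway could not be set beside B2m. Of 20 genes of MHC class I presentation, 4 other partners of B2m, 10 interferon response genes and 36 markers of brain cell types, 0 have a probe that the files pair with a gene name. The identity of the tissue and the share of microglia, endothelium or blood in each sample were therefore not tested, and whether a change in cell make-up enters the B2m value of vehicle replicate 2 was not tested.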

How the data were processed

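Per the file headers, the authors scanned 6 1-colour arrays with an Agilent scanner and extracted them with Agilent Feature Extraction 11.0.1.1. The deposited intensity of each spot had its background subtracted and was detrended within the array, with no normalization between arrays. The authors also deposited processed log2 values, normalized in GeneSpring GX with settings not given in the sources used here.

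Groups and replicate numbers were taken from the sample titles, and the slide from the scanner files. From the intensities, log2 signal minus the array's 75th percentile over non-control probes was computed. Outlier spots, of which an array had 21 to 46, and 15 probes serving as negative controls were left out, and the log2 values of a probe's spots were averaged. Accessions were named through RefSeq genes (GRCm38.p6): 15 of 15 reference probes matched, and 0 other probes carry an accession in that table. A probe entered the fit (30233 of 60915) if either group had it well above background on every array. These were fitted with limma 3.58.1 in R 4.3.3 with Benjamini-Hochberg adjustment, at the study's thresholds of p under 0.05 and 1.5-fold. B2m was also compared by an exact permutation test in SciPy 1.17.1. The code was tested on simulated data. The number of arrays limits precision.

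The member and the gene lists were chosen with earlier results of these data known. The genes named were B2m, the other reference genes, the 3 of these most and the 1 least like B2m by Pearson r, and listed pathway genes where a probe is named. Alternatives covered scaling, background correction, spots, filters, slide and replicate blocks, the test, and each array left out. The slide block without vehicle replicate 2 and the spread of raw signal were added after seeing the data. The files have no gMeanSignal column, so normexp (offset 50) was run on gMedianSignal.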

Additional observations from a re-analysis of the deposited data

How the results depend on the processing

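No alternative brought B2m past a threshold between groups, but its sign varied. The log2 difference, nicotine minus vehicle, of -0.05 became 0.031 with quantile normalization, 0.032 without scaling, 0.041 when centred on the other 14 reference probes, 0.12 on Gapdh, 0.022 on the authors' processed values and 0.049 with array weights. The median difference of all probes tested moved from -0.02 to 0.065 without scaling, 0.074 centred on the other references and 0.16 on Gapdh. With single arrays left out B2m ran from -0.15 to 0.11, above 0 without vehicle replicate 2 (0.11) and without nicotine replicate 2 (0.0063), and 0.11 with slide as a block without vehicle replicate 2, added after seeing the data.

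Deviations across probes correlated at 0.46 between the arrays numbered 2, both on slide 1. They correlated at -0.66 and -0.71 between those numbered 1 and 3, on different slides. Slide was not removed from these deviations, so they cannot show whether the numbers mark pairs. Numbers were not taken as pairs. Under the replicate block B2m differed by -0.05 (SE 0.34, limma, adjusted p = 1.00), and 531 probes passed both thresholds. The slide difference of B2m, -0.12, was -1.26 without scaling (limma, adjusted p = 0.00105), -0.36 with normexp and -0.31 centred on Gapdh; with single arrays left out it ran from -0.22 to -0.0029. The mean share of brighter probes, 3.12%, was 5.44% among probes well above background.

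The 919 probes past both thresholds became 154 without scaling, 461 with normexp, 1484 with slide as a block, 1428 on slide 1, 1615 with array weights, 612 by the methods' t-test, 1849 in the setting added later, 2040 without vehicle replicate 3 and 431 without nicotine replicate 2. The 8 with an adjusted p under 0.05 became 0 by limma with both groups filtered (813 unadjusted) and 0 by the methods' t-test (1311 unadjusted), 13 to 19 without scaling, with quantile normalization, the authors' values, slide as a block, slide 1 or no vehicle replicate 3, 4 with normexp, 5 without vehicle replicate 1, 45 with array weights and 329 in the setting added later. Of the 919, 52.0% were higher in nicotine offspring; the share was 84.5% centred on Gapdh, 72.0% on the other references, 62.2% without vehicle replicate 3, 44.3% with the replicate block, 41.7% with array weights, 35.9% without nicotine replicate 1 and 33.8% without vehicle replicate 2. Causes were not tested.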
